A study of Homo sapiens with 42 samples.

Results

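Y RNA pseudogenes are copies of the human Y RNA genes scattered over the genome. They were taken from a small RNA count table as the rows whose RNA class is Y_RNA, whose length is at most 500 nt and whose name is not RNY1, RNY3, RNY4 or RNY5. The rule found 744 of the 175946 rows, and the 4 genes have 1 row each. Counts were available for 30 libraries, 10 groups of 3. Per the labels, groups A4, A7, E4 and G8 are THP-1, a human monocytic leukaemia cell line. The series describes THP-1 knockouts of POLR3G and of POLR3GL, which replace each other in RNA polymerase III (Pol III), and does not say which of them A4, A7, E4 or G8 lost or whether each is 1 clone. The group labelled mock is described as HEK293T, a human embryonic kidney cell line, given 200 nM of a control antisense oligonucleotide by lipid transfection. Each group was sequenced without and with end repair by phosphatase and polynucleotide kinase (PNK), which lets fragments with blocked ends take the adapters of a small RNA library. The 12 samples labelled con or given an oligonucleotide against POLR3G were not analysed here.

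Y RNAs are short non-coding RNAs made by Pol III and bound by the proteins Ro60 and La. Their 5′ and 3′ ends pair into a stem, a loop lies between them, and fragments of either end are common in small RNA libraries. Most pseudogenes are thought to have arisen when a Y RNA was copied back into the genome, so that they lack the promoter upstream of the gene while keeping stretches of the mature RNA, and a short read from a gene can align equally well to its copies.

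Some properties of the libraries bear on every result. Counting ignored strand, and a read was counted in each row it overlapped, so a read from a gene, from its copies and from a transcript around a copy cannot be told apart. All p-values reflect the spread between libraries only, which may be technical, because the labels do not say whether the 3 libraries of a group came from separate cultures. In bulk RNA fewer cells of a type and less RNA per cell cannot be told apart. G8 libraries 1 and 2 without PNK stood apart before any test: miRNA held 2.27% and 2.13% of their counts, against 13.3% to 25.9% in the other 13 libraries without PNK. G8 libraries 1 and 2 with PNK were low too, at 0.311% and 0.271% against 0.603% to 1.25% in the other 13. Summed blood-cell miRNA (8 loci, among them MIR142, MIR223 and MIR155) reached 5382 to 7559 CPM (counts scaled to a library of 1e+06) in mock without PNK, beside 5597 to 9856 in A4, A7 and E4. Of the 8, MIR150 was at 0 in mock. MIR144 and MIR451A reached at most 1.91 and 1.14 CPM there, beside at most 0.95 and 1.48 in the THP-1 groups. MIR142, a defining miRNA of blood cells, was at 1753 to 3238 CPM in mock, which goes against a kidney cell label, and these samples are therefore called the libraries labelled mock. Summed epithelial miRNA (7 loci) was at 28.9 to 41.4 CPM there and at 20.7 to 65 CPM in A4, A7 and E4, with MIR205 and MIR203A at 0 in mock, and summed fibroblast miRNA (6 loci, 1 without a row) was at 216 to 327 CPM in mock and at 102 to 394 CPM in A4, A7 and E4. With PNK the blood-cell sum was 103 to 106 CPM in mock, 216 to 685 in A4, A7 and E4, and 50.6 to 162 in G8.

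The sequences below are those of RNY1, RNY4 and pseudogenes that carry an end of either. They come from GENCODE release 29 transcripts on GRCh38, read 5′ to 3′, and 675 of the 744 pseudogenes matched an entry. The genes RNY1 (chr7:148987136-148987248, minus strand) and RNY4 (chr7:148963315-148963410, plus strand) are shown with capitals on the stretches that abundant pseudogenes contain unchanged, a 3′ stretch in RNY1, and a 5′ stretch and a 3′ stretch in RNY4.
RNY1: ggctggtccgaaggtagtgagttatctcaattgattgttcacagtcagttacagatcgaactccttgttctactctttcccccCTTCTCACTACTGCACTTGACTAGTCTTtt
RNY4: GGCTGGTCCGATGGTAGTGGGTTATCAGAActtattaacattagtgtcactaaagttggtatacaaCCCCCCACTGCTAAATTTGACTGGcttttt
The capitals of RNY4 at bases 1 to 30 occur in 3 of the 675 pseudogene sequences (0.444%), those at 67 to 90 in 3 (0.444%), and those of RNY1 at 84 to 111 in 18 (2.67%). Bases 1 to 35 of RNY3 (chr7:148983755-148983856, plus strand) occur in 2 (0.296%) and its bases 66 to 95 in 23 (3.41%).

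The 3 pseudogenes that carry the RNY4 5′ stretch lie at chr3:157153548-157153640 (plus strand, opposite to an exon of CCNL1, the cyclin L1 gene), chr2:127798904-127798998 (RNY4P7, minus strand, an intron of WDR33 on the same strand) and chr6:151298841-151298933 (RNY4P20, minus strand, an intron of AKAP12 on the other strand). Capitals mark the longest run shared with RNY4, which is 34, 32 and 30 nt long.
chr3 copy: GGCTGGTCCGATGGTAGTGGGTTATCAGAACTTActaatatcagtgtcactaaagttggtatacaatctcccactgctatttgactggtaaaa
RNY4P7: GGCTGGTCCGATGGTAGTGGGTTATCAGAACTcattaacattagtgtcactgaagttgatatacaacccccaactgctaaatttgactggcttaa
RNY4P20: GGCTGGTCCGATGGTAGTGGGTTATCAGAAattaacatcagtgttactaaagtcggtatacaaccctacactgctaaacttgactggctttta
The 2 shown next carry the 3′ part of RNY4. They lie at chr9:70311607-70311701 (minus strand, opposite to an intron of SMC5) and at chr11:33004250-33004345 (minus strand, intergenic), with shared runs of 40 and 29 nt.
chr9 copy: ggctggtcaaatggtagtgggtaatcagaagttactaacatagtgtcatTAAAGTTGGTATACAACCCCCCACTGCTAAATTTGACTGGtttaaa
chr11 copy: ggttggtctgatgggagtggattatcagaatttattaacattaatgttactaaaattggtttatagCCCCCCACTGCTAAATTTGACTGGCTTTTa
RNY3 is represented by 2 copies of its 5′ end, at chrX:117914244-117914345 (minus strand, an intron of KLHL13) and chr11:47726894-47726992 (minus strand, an exon of FNBP4), and by 2 of its 3′ end, at chr3:41868998-41869095 and chr7:92202243-92202334 (both minus strand). The runs are 70, 35, 31 and 30 nt long.
RNY1 is represented by 2 copies of its 3′ end, at chr16:66550457-66550567 (plus strand, opposite to an intron of TK2 and within an exon of the long non-coding RNA AC010542.4) and at chr4:159064297-159064398 (minus strand, intergenic), with runs of 45 and 28 nt. The chr4 copy is 1 of a set of 13 pseudogenes with near-equal counts in every library.
chr16 copy: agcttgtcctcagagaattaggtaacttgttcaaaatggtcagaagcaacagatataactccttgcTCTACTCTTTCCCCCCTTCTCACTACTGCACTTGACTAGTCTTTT
chr4 copy: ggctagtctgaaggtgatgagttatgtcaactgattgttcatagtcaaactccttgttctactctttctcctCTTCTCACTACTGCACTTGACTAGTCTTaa

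The 744 pseudogenes were 77 to 233 nt long with a median of 102 nt. They lay on 24 chromosomes, 354 on the plus and 390 on the minus strand. Of the 744, 252 were intergenic, 229 lay only in introns on the same strand, 214 only in introns on the opposite strand, 20 in introns on both, and 29 overlapped an exon. The exonic pseudogenes held 24.6% of the counts, most of it in the chr3 copy, while the intergenic ones held 8.97%. By sequence, compared with RNY1, RNY3 and RNY4 only, 332 were closest to RNY3, 293 to RNY1 and 50 to RNY4, at an identity of 69.3% to 97.1% (median 86.7%). RNY5 had no entry among the sequences and was not compared, so copies closest to RNY5 could not be recognised.

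Counts were concentrated in few of them. The pseudogenes summed to 1668892 counts, 828430 without and 840462 with PNK, yet the median pseudogene had 27 counts over the 30 libraries and 99 had none. Without PNK, the 2 most abundant held 44.7% of the counts and the 10 most abundant 58.3%. With PNK the 2 most abundant held 31.2%, but the 10 most abundant 88.7%.

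**Figure D1:**
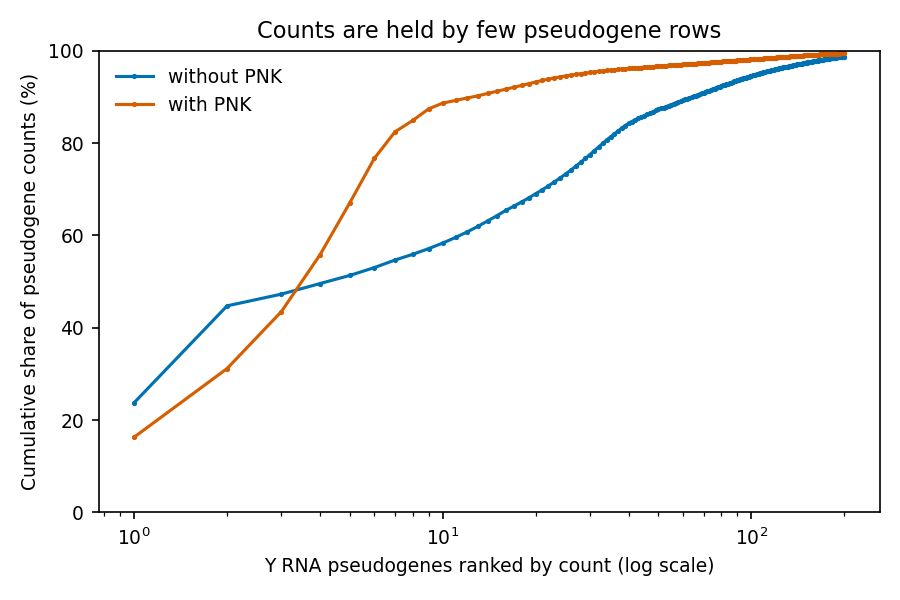
Cumulative share of all Y RNA pseudogene counts (%) against the rank of the pseudogene by count (log scale), without PNK (blue) and with PNK (orange), 15 libraries summed in each. With PNK 10 rows reach 88.7% of the counts, and without PNK 50 rows are needed to reach 87.3%.

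The number of counts went with the length of the longest run a pseudogene shares with RNY1, RNY3 or RNY4. Pseudogenes with a longest shared run under 15 nt (31 of them) had a median of 1 count over the 30 libraries, those with 15 to 19 nt (132) had 2, those with 20 to 24 nt (161) had 11, those with 25 to 29 nt (143) had 111, and those with 30 nt or more (208) had 134. Across the 675 sequences, Spearman's rho with the counts was 0.51 for run length and 0.44 for identity, a description over rows that share reads and libraries. The 351 pseudogenes with a run of 25 nt or more held 95.8% of the counts of the 675. This length was set after the values were seen, as were the classes by gene end that follow, and both are used only to describe.

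A pseudogene was assigned to a 5′ class when its run of at least 25 nt began within the opening 3 bases of the gene. It was assigned to a 3′ class when the run began past the midpoint of the gene and missed at most the last 9 bases. Other runs of at least 25 nt were put in neither class. The 4 copies of the RNY4 5′ end held 46.2% of the pseudogene counts without PNK and 42.6% with it. The 36 copies of the RNY1 3′ end held 21.3% without PNK and 0.692% with it, and the 3 copies of the RNY4 3′ end 2.29% and 0.201%. The 6 copies of the RNY3 5′ end held 4.04% without PNK and 16.7% with it, and the 43 copies of the RNY3 3′ end 1.94% and 0.989%. The share was thus lower with PNK for each of the 3′ classes and higher for the RNY3 5′ class, a comparison that needs no scaling between the arms and was not tested. The 69 pseudogenes that have no entry among the sequences held 12.9% and 32.3%.

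**Figure D2:**
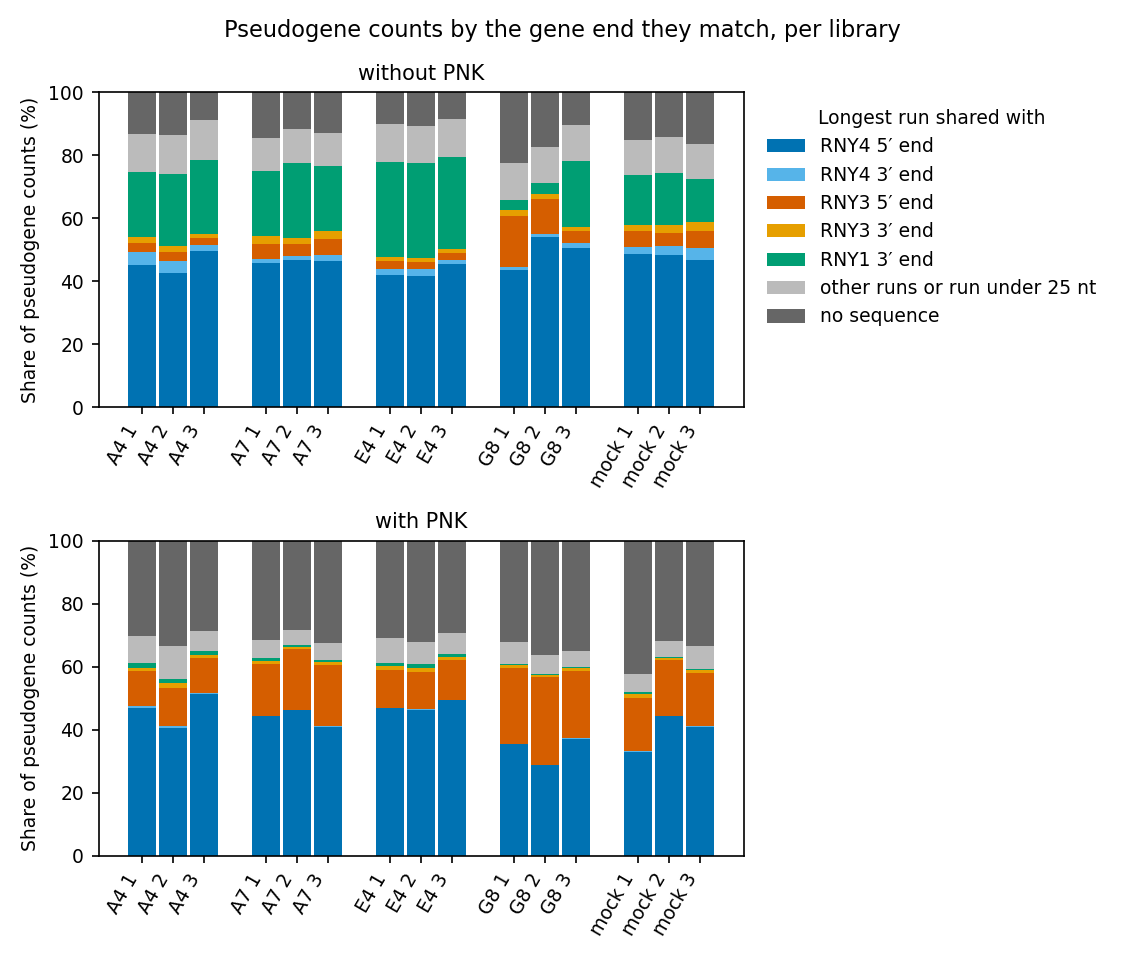
Share of the pseudogene counts (%) in each library by the gene end that the longest shared run matches, without PNK (top) and with PNK (bottom), 3 libraries per group. The RNY1 3′ class (green) held 20.5% to 30.2% in A4, A7 and E4 without PNK, 3.37%, 3.48% and 21% in the 3 G8 libraries, and at most 1.54% in any library with PNK.

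Levels between rows are compared per length, as the mean over the 15 libraries of an arm in CPM per 100 nt. CPM was scaled within an arm and is not comparable between the arms. Without PNK the chr3 copy had 1252 CPM per 100 nt and RNY4P7 had 1081, beside 1851 for RNY4 itself, 1441 for RNY1, 424 for RNY3 and 361 for RNY5. RNY4P20, which shares 30 rather than 34 or 32 nt with RNY4, had 63.9 CPM per 100 nt in the same libraries. With PNK, RNY4P20 stood at 1262 CPM per 100 nt, beside 1822 for the chr3 copy and 1623 for RNY4P7.

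This difference between the arms was seen in every library. The ratio of RNY4P20 to chr3 copy counts, which needs no scaling, was 0.0288 to 0.0821 in the 15 libraries without PNK and 0.596 to 0.847 in the 15 with it. Without PNK the ratio also separated the groups: it was 0.0738 ± 0.0105 (SD, n = 3) in A4 and 0.0614 ± 0.00569 in mock, against 0.0341 ± 0.00208 in A7, 0.0378 ± 0.00443 in E4 and 0.0345 ± 0.00539 in G8. The 6 libraries of A4 and mock lay above the 9 of A7, E4 and G8. This ratio was chosen after its values were seen and is given with no test. RNY4P17 (chr4:169005249-169005344, opposite to an intron of CBR4), which shares only the opening 17 nt in its longest run, had 116 CPM per 100 nt without PNK and 47.5 with it.

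With PNK, copies of the RNY3 5′ end and 2 pseudogenes with no entry among the sequences were also abundant. The chrX copy of RNY3, whose counts followed those of a second copy at chr13:99536319-99536396, had 86.3 CPM per 100 nt without PNK and 1276 with it, where RNY3 itself had 1408. The FNBP4 copy, which had counts near those of a copy at chr10:126920807-126920903, had 63.6 and 259 CPM per 100 nt. The 2 with no entry were both in introns of genes. The pseudogene at chr8:123044717-123044812 in an intron of TBC1D31 had 132 and 1039, and one at chr9:74847506-74847601 opposite to an intron of TRPM6 had 90.5 and 616. The copies of the RNY4 and RNY1 3′ ends shown above were low within the arm with PNK. The chr9 and chr11 copies of RNY4 had 14.7 and 4.13 CPM per 100 nt, and the chr16 and chr4 copies of RNY1 had 9.98 and 2.42. Without PNK, on a scale that cannot be set against that one, they had 33.3, 45.5, 52.9 and 39.3. The chr3 and chr7 copies of the RNY3 3′ end had 3.21 and 2.77 with PNK, and 4.79 and 4.91 without it.

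As a whole, the pseudogenes were a small part of each library. They made up 0.631% ± 0.0913 (SD, n = 3) of the counts in A4, 0.65% ± 0.0742 in A7, 0.498% ± 0.0451 in E4, 0.186% ± 0.0552 in G8 and 0.606% ± 0.0934 in mock without PNK. With PNK the shares were 0.788% ± 0.16, 1.49% ± 0.107, 0.801% ± 0.0952, 0.808% ± 0.0167 and 1.33% ± 0.136 in the same order. The G8 share was thus the lowest without PNK, whereas with PNK it lay beside those of A4 and E4, and A7 and mock were higher.

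The sum of the pseudogenes was about as large as the sum of the 4 genes. Their ratio without PNK was 1.12 ± 0.0167 (SD, n = 3) for A4, 1.47 ± 0.0216 in A7, 1.31 ± 0.0113 in E4 and 1.28 ± 0.041 in mock, and 0.659, 0.687 and 1.1 in G8 libraries 1, 2 and 3. With PNK it was 0.888 ± 0.0724 in A4, 1.3 ± 0.024 in A7, 0.968 ± 0.023 in E4, 1.21 ± 0.114 in G8 and 1.42 ± 0.16 in mock. In both arms the ratio was thus higher in A7 than in E4, and higher in E4 than in A4, by mean value.

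The THP-1 groups were compared without PNK over the 12 libraries of A4, A7, E4 and G8, to ask which pseudogenes differ among groups of a study of Pol III subunits. Of the 744 pseudogenes, 215 passed the filter on low counts and are therefore not all of them, and 167 of the 215 differed among the groups (edgeR quasi-likelihood test, Benjamini-Hochberg adjusted p at most 0.05 over 1786 features). This is 77.7% of those tested, where 32.1% of all features tested were called. By the group means, 157 of the 167 were lowest in G8 (94%), against 262 of the 574 features called in all (45.6%), and 103 were highest in A4 (61.7%, against 31.4%). Without any G8 library 111 of 213 pseudogenes were called (52.1%, against 34.7% of all features), 94 of them among the 167. Leaving out single libraries gave 88, 98 and 102 without A7 library 1, A7 library 2 and A4 library 2.

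Because 2 G8 libraries stood apart, each G8 library was set against the 9 libraries of A4, A7 and E4. Of the 167 called pseudogenes, 143, 128 and 146 lay below all 9 in G8 libraries 1, 2 and 3. For all 574 called features the numbers were 235, 214 and 223. The G8 library that did not stand apart by its miRNA share (library 3) had 87.4% of the called pseudogenes below all 9, where 38.9% of all called features were below. Both sets were called with all 3 G8 libraries, so low values of library 3 among them are in part built in. Copies among the called pseudogenes also share reads. Without G8 libraries 1 and 2, 152 of 251 pseudogenes were called (60.6%, against 32% of all features), 131 of them among the 167.

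The copies of the RNY4 5′ end were lower in G8, and all 4 were called. The chr3 copy had 1305, 1285 and 1880 CPM in A4, 1249, 1266 and 1149 in A7, 947, 926 and 1204 in E4, 617, 789 and 626 in G8, and 1644, 1339 and 1234 in mock (adjusted p = 0.0241 by edgeR over the 4 THP-1 groups). The G8 libraries lay below the 12 others, and A4 and E4 did not overlap. RNY4P7 had 526, 701 and 574 CPM in G8, 1151, 1143 and 1646 in A4, 1061, 1100 and 1020 in A7 and 834, 823 and 1104 in E4 (adjusted p = 0.0274), the same order by group mean.

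RNY4P20 differed more. It had 107, 99.3 and 116 CPM in A4 (108 ± 8.57, SD, n = 3), 43.5, 40.2 and 40.9 in A7 (41.5 ± 1.77), 40.6, 33.7 and 41.4 in E4 (38.5 ± 4.21), 21.8, 31.2 and 18 in G8 (23.7 ± 6.76) and 97.4, 76.6 and 83.8 in mock (85.9 ± 10.6). A4 and mock were high, A7 and E4 overlapped each other, and G8 was lowest without overlap (edgeR adjusted p = 0.00251). The sum of the 4 copies relative to RNY4 was 1.37 to 1.39 in A4, 1.19 to 1.28 in A7, 1.29 to 1.31 in E4, 1.31 to 1.36 in mock, and 0.877, 0.964 and 1.27 in the G8 libraries. Without any G8 library, 2 of the 4 copies remained called, where 34.7% of all features were called.

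The 3 copies of the RNY4 3′ end were all called, with and without G8. The chr9 copy had 65.9, 73.1 and 46.2 CPM in A4 (61.7 ± 13.9, SD, n = 3), 16.7, 19.1 and 19.3 in A7 (18.4 ± 1.43), 22.7, 23.2 and 21.7 in E4 (22.5 ± 0.767), 6.94, 5.97 and 9.56 in G8 (7.49 ± 1.85) and 44.2, 44.8 and 54.7 in mock (47.9 ± 5.87). A4 and mock were above A7, E4 and G8 in every library, and G8 was below all others (edgeR adjusted p = 0.00151). The chr11 copy, which has a near-equal copy at chr20:18329006-18329102, had 87.8, 87.1 and 55.7 CPM in A4, 27.2, 28.3 and 35.9 in A7, 38, 41.3 and 27.4 in E4, 11.3, 15.7 and 16.3 in G8 and 47.5, 59.7 and 76.1 in mock (adjusted p = 0.00259), the same arrangement.

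Relative to RNY4 in the same library, the 3′ copies were at 0.121, 0.127 and 0.0582 in A4, 0.0332, 0.0366 and 0.0456 in A7, 0.0636, 0.0681 and 0.0404 in E4, 0.0178, 0.0187 and 0.0396 in G8, and 0.0558, 0.0791 and 0.109 in mock. Library 3 departed from the other 2 in A4, E4 and G8, and the A4 and mock ranges overlapped that of E4.

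The copies of the RNY1 3′ end split G8 from the rest. All 35 that could be tested were called and lowest in G8, 22 of them highest in A4 and 13 in E4. The chr4 copy, 1 of 13 near-equal copies, had 43, 54 and 71 CPM in A4, 44.2, 51.4 and 38.6 in A7, 52.5, 51.7 and 61.4 in E4, 38.7, 37.2 and 28 in mock, and 4.25, 3.73 and 21.1 in G8 (edgeR adjusted p = 0.0296). G8 library 3 was above the other 2 and still under every library of the other groups. The chr16 copy had 6.52, 4.48 and 30.1 CPM in G8 and 61.9 to 97.2 in A4, A7 and E4 (adjusted p = 0.0296).

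Relative to RNY1 in the same library, the sum of the RNY1 3′ copies was 0.514 to 0.548 in A4 and 0.461 to 0.55 in mock, 0.893 to 0.988 in A7 and 0.869 to 0.909 in E4, and 0.11, 0.0927 and 0.58 in G8. A4 and mock thus had lower ratios than A7 and E4 with no overlap, while the summed CPM of the copies was 1186 to 1749 in A4, 977 to 1230 in A7 and 1300 to 1521 in E4. G8 libraries 1 and 2 set the low G8 ratio, and in library 3 it was above those of A4. Without any G8 library 11 of 35 RNY1 3′ copies were called, where 34.7% of all features were, so these copies did not stand out there. With library totals in place of TMM factors 16 of the 35 were called, where 30.3% of all features were.

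**Figure D3:**
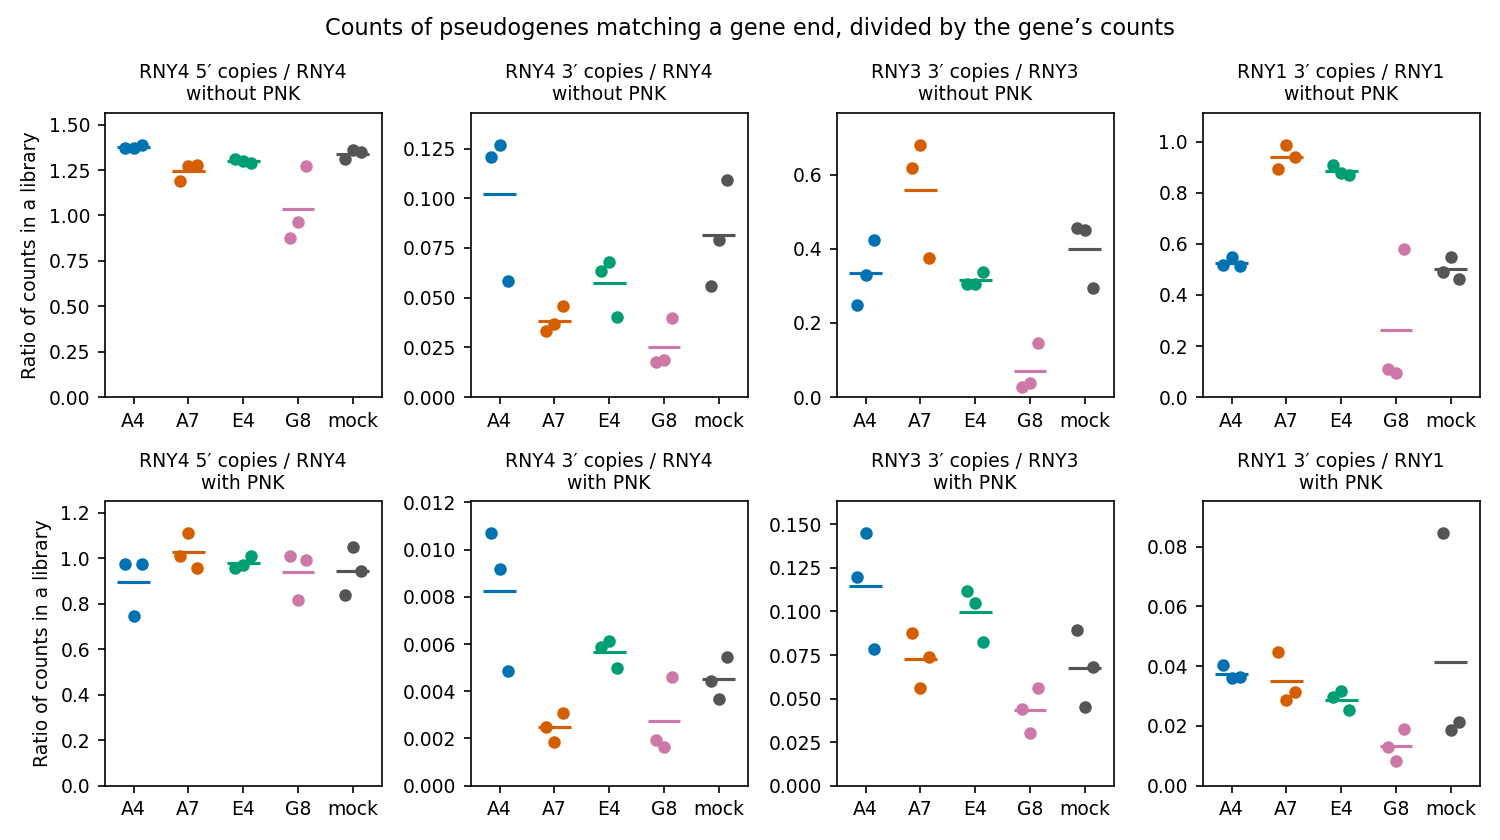
Summed counts of pseudogenes that match a gene end divided by the counts of the gene in the same library (no unit), per library (points) and group mean (lines), without PNK (top) and with PNK (bottom). RNY1 3′ copies were at 0.461 to 0.55 of RNY1 in A4 and mock without PNK and at 0.869 to 0.988 in A7 and E4.

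The RNY3 copies followed another order. Of 37 testable copies of the RNY3 3′ end, 30 were called, 26 of them highest in A7. The chr7 copy had 6.18, 6.98 and 6.71 CPM in A4, 5.26, 4.15 and 5.16 in A7, 3.09, 3.85 and 2.73 in E4, 1.28, 1.68 and 1.68 in G8 and 6.1, 6.17 and 6.76 in mock (edgeR adjusted p = 0.00252), so A4 and mock were high, A7 and E4 between, and G8 low, unlike the 26 that were highest in A7. Of 5 testable copies of the RNY3 5′ end 1 was called, and 5 of 5 without any G8 library. The chrX copy had 63.9, 63.8 and 59.6 CPM in A4, 118, 81.9 and 101 in A7, 43.6, 40.8 and 41.8 in E4, 157, 98.4 and 110 in mock and 170, 129 and 42.2 in G8, an adjusted p of 0.0555 by edgeR. G8 reached from the E4 range to above mock, and A4, A7 and E4 did not overlap each other.

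**Figure D4:**
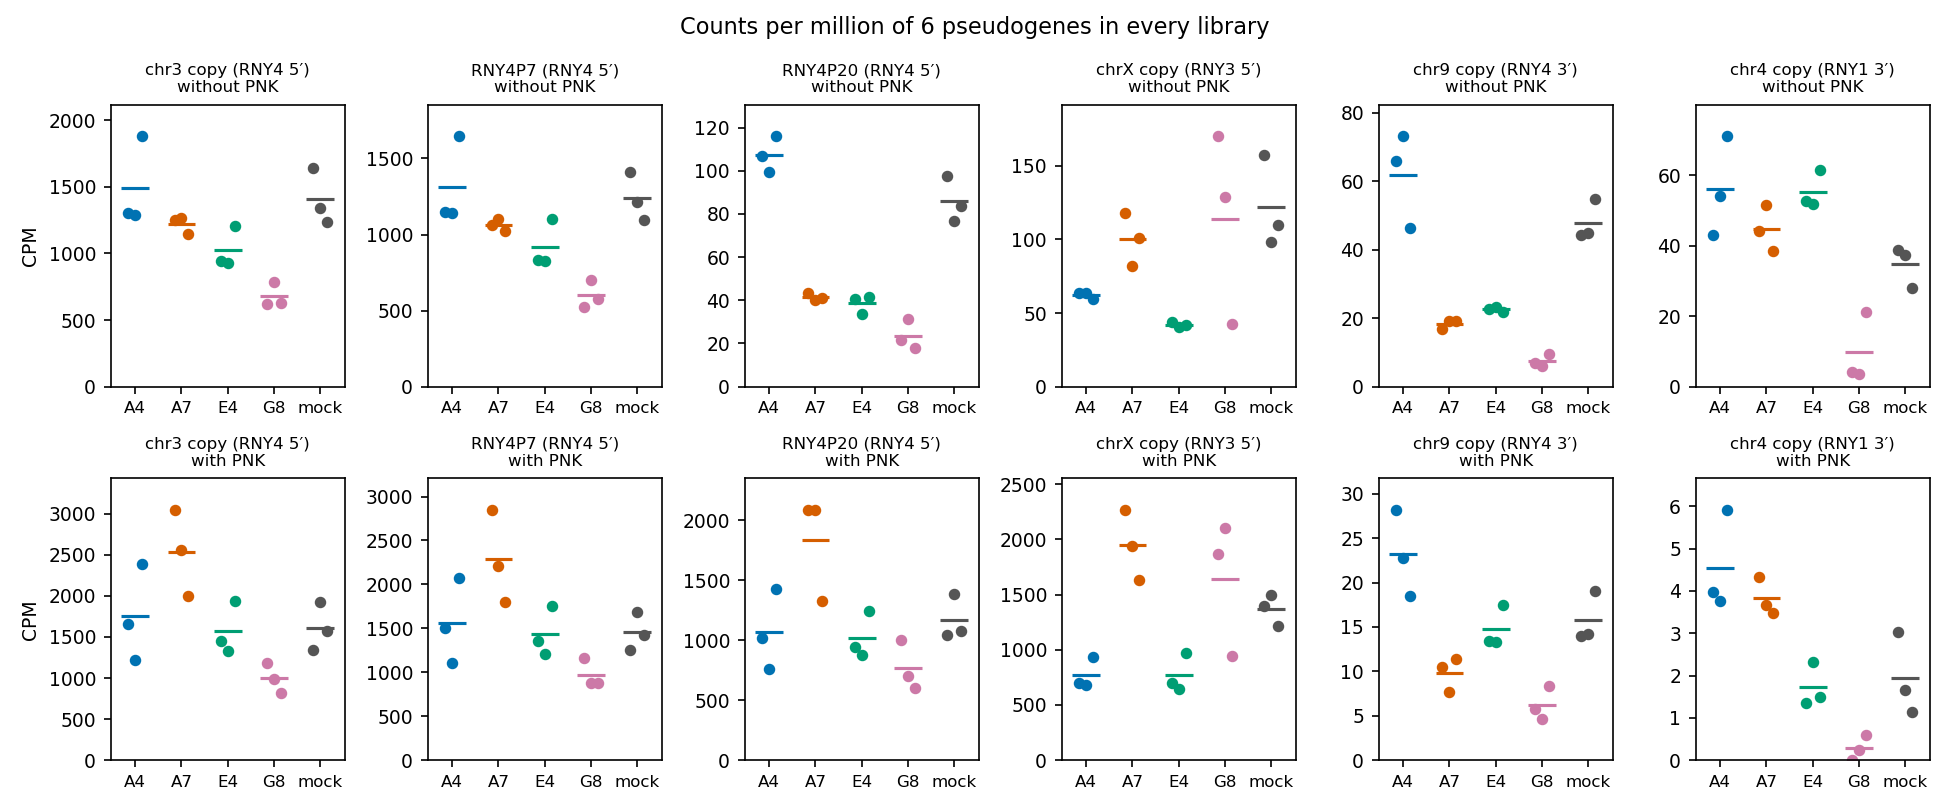
CPM of 6 pseudogenes in each library (points) with the group mean (lines), without PNK (top) and with PNK (bottom), where CPM is comparable within an arm only. The chr9 copy is highest in A4 and mock in the top panel (44.2 to 73.1 CPM) and lowest in G8 (5.97 to 9.56 CPM).

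With PNK, 147 of the 744 pseudogenes passed the filter and 70 differed among A4, A7, E4 and G8 (edgeR quasi-likelihood test, adjusted p at most 0.05), which is 47.6%, where 22% of the 8632 features tested were called. The lowest group was G8 for 57 of the 70 (81.4%, against 39.4% of all called features). The highest group was A7 for 41 (58.6%, against 18.5% of all called features) and A4 for 29 (41.4%, against 42.7%). Without G8 libraries 1 and 2, 57 of 181 were called (31.5%, against 15% of all features), 45 of them among the 70. Without any G8 library 29 of 141 were called (20.6%, against 16.3% of all features), 26 of them among the 70.

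The order of the groups in the RNY4 5′ copies changed with PNK: all 4 were highest in A7. The chr3 copy had 3049, 2556 and 1996 CPM in A7, 1660, 1222 and 2391 in A4, 1448, 1334 and 1939 in E4, 1347, 1920 and 1573 in mock and 1187, 984 and 815 in G8 (edgeR adjusted p = 0.0196). RNY4P20 had 2090, 2090 and 1329 CPM in A7, 1016, 760 and 1425 in A4, 941, 875 and 1241 in E4, 1045, 1389 and 1082 in mock and 1005, 703 and 606 in G8 (adjusted p = 0.0255). A7 overlapped A4 in both, and without any G8 library 0 of the 4 copies were called, though all 4 had an unadjusted edgeR p under 0.05.

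The RNY4 3′ copies kept A4 as the highest group. The chr9 copy had 28.2, 22.8 and 18.5 CPM in A4, 10.5, 7.7 and 11.4 in A7, 13.4, 13.3 and 17.5 in E4, 14, 14.2 and 19 in mock and 5.74, 4.64 and 8.33 in G8 (edgeR adjusted p = 0.000701). A4 lay above A7, E4 and G8 in every library, and all 3 copies of the RNY4 3′ end were called with and without G8.

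All 6 RNY3 5′ copies were called with PNK, with and without G8, and all were highest in A7. The chrX copy had 2270, 1945 and 1635 CPM in A7, 1870, 2108 and 943 in G8, 1398, 1498 and 1218 in mock, 699, 685 and 937 in A4 and 702, 645 and 967 in E4 (edgeR adjusted p = 0.00571). A4 and E4 overlapped each other and lay below A7 and mock in every library. Of 22 testable RNY1 3′ copies 20 were called, 18 of them highest in A4, at low levels. The chr4 copy had 3.98, 3.76 and 5.92 CPM in A4, 4.33, 3.67 and 3.47 in A7, 1.36, 2.33 and 1.49 in E4 and 0, 0.244 and 0.606 in G8 (edgeR adjusted p = 0.000836). Without any G8 library 2 of the 22 were called, where 16.3% of all features were. Of 26 testable RNY3 3′ copies, 8 were called, where 22% of all features were.

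The libraries labelled mock were set against the mean of the 4 THP-1 groups, which crosses the cell lines the labels name. Without PNK 50 of 224 tested pseudogenes were called and all 50 were higher in mock (edgeR quasi-likelihood test). This is 22.3%, where 5.94% of the 1834 features tested were called, 5.23% of all tested being called higher and 0.709% called lower. The median log2 difference was 0.44 over the tested pseudogenes and 0.06 over all tested features (0.13 and −0.01 without any G8 library). The mean of the THP-1 groups includes G8. Without any G8 library 28 were higher and 14 lower in mock, with 20 of the 42 shared with the 50. These 42 are 18.9% of those tested, against 9.06% of all features, of which 98 were higher and 67 lower. Single libraries set this count: 7, 14 and 18 were called without mock libraries 1, 2 and 3, 28 to 33 without A4 library 1, A7 library 2, A7 library 3, E4 library 2 or G8 library 2, and 110 without G8 library 3. Without mock libraries 1, 2 and 3 the shares were 2.99%, 5.93% and 7.63%, against 0.623%, 1.61% and 3.32% of all features. Without G8 library 3 the share was 46.4%, against 27.6%.

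The RNY4 3′ copies were called in 3 of 3 cases without PNK, with a median log2 difference of 1.10, and the chr9 copy was higher in mock by 1.19 ± 0.186 (SE, edgeR adjusted p = 0.00498). The mock libraries still lay within the A4 range or below it. RNY4P20 was higher by 0.94 ± 0.186 (adjusted p = 0.0122), though its 85.9 ± 10.6 CPM (SD, n = 3) in mock lay below the 108 ± 8.57 in A4. Of the RNY3 3′ copies 20 of 39 were called higher (median 0.88), and the chr7 copy by 0.83 ± 0.163 (adjusted p = 0.0117). The chr7 copy had 6.34 ± 0.363 CPM (SD, n = 3) in mock and 6.62 ± 0.408 in A4, so its mock mean was not above that of A4. Of 35 RNY1 3′ copies 0 were called by edgeR and by DESeq2, and 0 had an unadjusted edgeR p under 0.05 (median 0.08), while without any G8 library 9 of the 35 were lower in mock (median −0.61).

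The largest log2 differences by the naming rule were mostly those of low rows: 1.83 ± 0.276 (SE) for RNY3P16 at chrX:119456558-119456658, which is intergenic (edgeR adjusted p = 0.00498), and 1.63 ± 0.292 for a pseudogene at chr3:38505480-38505581 opposite to an intron of EXOG (adjusted p = 0.00692). RNY3P16 had 2.67, 1.97 and 1.79 CPM in mock and 0.0985 to 1.83 in the 12 THP-1 libraries, so that the ranges met. The others were at chr12:57227974-57228097 (1.59 ± 0.416), chr14:51253933-51254023 (1.52 ± 0.262) and chr17:38231043-38231144 (1.39 ± 0.242). The chr14 copy had 10.7 ± 0.478 CPM (SD, n = 3) in mock and 10.9 ± 0.354 in A4, so its mock mean was not above that of A4. It had 3.95 in A7, 3.99 in E4 and 1.05 in G8. The chr12 copy had 2.07 ± 1.4 in mock and 1.29 ± 0.551 in A4, and the chr17 copy 2.21 ± 0.561 and 1.45 ± 0.353.

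With PNK, 3 of 156 tested pseudogenes were called (1.92%), where 5.97% of 9241 features were, 2.48% higher and 3.5% lower. Without 1 library at a time the count was 0 to 5. A copy of the RNY3 5′ end at chr16:69191123-69191222, in an intron of UTP4, was higher in mock by 0.63 ± 0.183 (SE, log2, edgeR adjusted p = 0.0496). Lower were a copy at chr19:36049146-36049223 opposite to an intron of THAP8, with a log2 difference of −1.76 ± 0.457 (adjusted p = 0.0312), and the RNY1 5′ copy at chr7:6212638-6212740 in an intron of CYTH3, with one of −0.99 ± 0.254 (adjusted p = 0.0288). The chr7:6212638 copy had 3.23, 5.02 and 5.11 CPM in mock, 13.4, 9.76 and 14.1 in A4, 11.5, 11.1 and 10 in E4, 4.24, 3.42 and 4.54 in G8, and 7.72, 18.3 and 8.27 in A7, so mock overlapped G8 alone.

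End repair was tested over the 24 libraries of the THP-1 groups. The direction of these changes depends on scaling, since PNK altered most of the features: 93.6% of 11083 features were called by edgeR with TMM factors, 79.5% higher and 14.2% lower with PNK. Of 246 tested pseudogenes, 219 were lower and 9 higher, with a median log2 change of −3.64, against 3.63 over all features. With library totals in place of TMM factors, 99 were higher and 109 lower and the medians were −0.18 and 6.01. The median of the pseudogenes was thus below that of all features under both scalings. Both medians move together when the scaling changes, so this is no separate check.

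A change of scaling shifts the log2 changes of all rows by a similar amount, so the order of the class medians could hardly differ. For the classes given here it was the same under both scalings. The 34 tested copies of the RNY1 3′ end were all lower with PNK under both scalings, with medians of −7.67 by TMM and −4.20 by totals, as were the 3 RNY4 3′ copies (−6.89 and −3.38). The RNY4 5′ copies had 1 higher and 3 lower by TMM (median −2.81), but all 4 higher by totals (0.69). For the RNY3 5′ copies 1 was higher and 4 lower of 6 by TMM (−1.57), and all 6 were higher by totals (1.96). The 37 RNY3 3′ copies were all lower by TMM (−3.59), and 8 were higher and 11 lower by totals (−0.10).

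The largest falls by TMM were at chr6:25192413-25192490 opposite to an intron of CMAHP (−8.66 ± 0.487, SE, log2), in DIP2B at chr12:50743568-50743684 (−8.52 ± 0.39), at chr1:10999862-10999945, which is 1 of 4 near-equal copies (−8.39 ± 0.382), opposite to TMEM268 at chr9:114615455-114615568 (−8.38 ± 0.41) and opposite to LHFPL1 at chrX:112661657-112661768 (−8.29 ± 0.435). The largest rises were smaller. They were at chr1:165662585-165662687 in a UTR of ALDH9A1 (3.65 ± 0.797), at chr1:35195969-35196063 (3.22 ± 1.27), in RNY4P3 at chr16:50098264-50098358 in HEATR3 (2.86 ± 0.671) and at chr15:37050828-37050930 in MEIS2 (2.75 ± 0.386). The fifth lay at chr11:118994560-118994655, over a 7SL row. Over the 15 libraries without PNK, chr1:165662585, chr1:35195969 and RNY4P3 had 3, 2 and 9 counts. The fall at chr6:25192413 had 2 counts over the 15 libraries with PNK. Such rows passed the filter on low counts only through the arm where they were high, so a large change was in part built in. The sole RNY4 5′ copy that rose by TMM was RNY4P20, by 1.06 ± 0.183.

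Whether the differences among the THP-1 groups depended on PNK was tested by the interaction. Of 246 pseudogenes 39 had an unadjusted edgeR p under 0.05, as had 984 of the 11083 features. After adjustment 2 pseudogenes were called (0.813%), where 0.442% of all features were. The first, a copy of the RNY3 3′ end in an intron of TMOD3 (chr15:51884556-51884653), had 0.992, 0.373 and 0.788 CPM in G8 without PNK and 1.23 to 3.14 in A4, A7 and E4, and with PNK 4.99, 5.13 and 4.09 in G8, 2.75 to 4.19 in A4, 5.87 to 7.34 in A7 and 1.97 to 3.53 in E4 (edgeR adjusted p = 0.0455). The other, opposite to an intron of CHM (chrX:86019608-86019715), had 0.142, 0.373 and 0.197 CPM in G8 without PNK and 1.23 to 2.58 in the others, and with PNK 1.25, 1.22 and 0.757 in G8, 0.795, 1.25 and 0.986 in A4, 1.69, 1.1 and 2.32 in A7 and 0.359, 0.583 and 1.12 in E4, so that G8 overlapped A4, A7 and E4 (adjusted p = 0.0406). Both were low rows, and without G8 libraries 1 and 2 in both arms, which leaves 1 G8 library per arm assumed to vary like the other groups, the adjusted p was 0.807 and 0.76. With same-numbered libraries of a group as pairs, 8 other pseudogenes were called and neither of these (3.25%, against 2.43% of all features). Leaving out 1 library at a time gave 0 to 28 calls. RNY4P20 had an adjusted p of 0.0515.

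The genes and other Pol III products were read in the same fits. Without PNK, 3 of the 4 Y RNA genes differed among A4, A7, E4 and G8, and with PNK 3 of 4, where 32.1% and 22% of all features were called. In mock without PNK 0 of the 4 was called by edgeR or had an unadjusted p under 0.05 (median 0.25), and with PNK 1 was called, RNY5, with a log2 difference of −1.51 ± 0.29 (SE, edgeR adjusted p = 0.00516). Other Pol III RNAs (vault RNAs, RN7SL1, RN7SL2, RN7SK, RPPH1, RMRP, RNU6ATAC and U6 genes, 12 of 15 with a row) were called among the THP-1 groups in 4 of 11 cases without and 7 of 12 with PNK. These are 36.4% and 58.3%, against 32.1% and 22% of all features. Pseudogenes of other Pol III RNAs gave few tested rows without PNK: 1 of 4 of 7SL and 0 of 5 of U6 were called by edgeR (0 of the 5 also at an unadjusted p under 0.05), and no 7SK row passed the filter. With PNK, 6 of 10 of 7SL (60%), 10 of 16 of 7SK (62.5%) and 23 of 43 of U6 (53.5%) were called among the groups, against 22% of all features.

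Levels with and without end repair were compared in these families too. By TMM 15 of 20 tested 7SK pseudogenes and 19 of 51 U6 pseudogenes were higher with PNK (medians 1.63 and 0.77), 8 of 17 7SL pseudogenes were higher and 7 lower (0.06), and the 4 Y RNA genes were all lower (−2.12), beside the −3.64 of the Y RNA pseudogenes. Of all features tested, 79.5% were called higher and 14.2% lower. No difference between families was tested.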

How the data were processed

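Per the labels, mirVana PARIS enrichment of small RNA is described for THP-1, and the libraries come from NEBNext Small RNA chemistry. Per the submitters' processing notes, reads were handled with Trim Galore, FastQC, Bowtie2 2.3.5.1, SAMtools 1.9, deepTools 3.2.1, bedtools 2.28.0 and GRCh38. The authors deposited raw counts per annotated row, and their handling of multi-mapping reads is not given in these sources. Rows that overlap were reduced to 86005, small RNAs foremost, summing (unit 1e+06) to 9.64 to 13.2 per library in the arm without PNK and 4.46 to 6.81 in the other. Tests used the quasi-likelihood fit of edgeR 4.0.16 (R 4.3.3) with filterByExpr, TMM factors and Benjamini-Hochberg adjustment over all features at a threshold of 0.05, after a trial on simulated data. CPM uses TMM factors within an arm. The coefficient of biological variation was 40.3% without PNK and 24.2% with it among the THP-1 groups. No 2 libraries of a group held the same counts (chi-square per feature at least 3.87). Sequences were aligned with Biopython 1.88 in Python 3.11.15.

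Pseudogenes named are the 8 most abundant in each arm, and, among those past the threshold, the 5 largest rises and falls or, for tests over several groups, some of the 10 smallest p; pseudogenes with totals within 5% and a correlation above 0.99 were taken as copies. Sequences printed, which leave out RNY3 and its copies, not reported here, are those of named pseudogenes with the most counts per gene end. Ratios to a gene or another copy were picked after their values were seen. Members and lists were chosen with earlier results of these data known. The 123 rows of type Y_RNA outside the rule were left out of the tests on pseudogenes. Alternatives were library totals, DESeq2 1.42.0 and its size factors, no filter, every deposited row, a replicate block, copies counted once, each library left out, G8 libraries 1 and 2 left out and, added after seeing the data, no G8 library. Same-numbered libraries correlated above 0.1 in all 3 pairs for 3 of 10 group pairs without PNK and 0 of 10 with it, and, between the arms of a group, for A4, E4 and G8 but not A7 and mock (3 of 5), so the numbers were not taken to pair the libraries. A block of same-numbered libraries within each group was added after seeing the data for the tests that span the arms.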

Additional observations from a re-analysis of the deposited data

Results flagged for a closer look

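The 2 pseudogenes with an effect of group that depended on PNK are listed for the test of that difference itself: chr15:51884556 in TMOD3, with an edgeR adjusted p of 0.0455 for the interaction, and chrX:86019608 opposite to CHM, with 0.0406. That fit did not pair the arms, and with same-numbered libraries of a group as pairs neither was called. Both have few counts, and neither was called without G8 libraries 1 and 2 in both arms (adjusted p = 0.807 and 0.76). The part of those libraries' low miRNA share in the result was not tested.

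Rows named as Y RNA in the table but outside the rule also hold signal: the 123 such rows summed to 28824 counts over the 30 libraries, with a median of 3, and 34 had none. These rows entered no count of pseudogenes above.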

How the results depend on the processing

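Counts of called pseudogenes moved with the G8 and mock libraries, the filter, the scaling and the choice of test. Across the THP-1 groups, 111 were called without any G8 library in place of 167 without PNK, and 29 in place of 70 with it. In mock without PNK, 6 were called with no filter (1.03%, against 0.139% of all features) and 29 with every deposited row (12.9%, against 2%). These stand in place of 50 (22.3%, against 5.94%). In mock with PNK, where 3 were called (1.92%, against 5.97% of all features), library totals gave 21 (13.5%, against 18.6%). The DESeq2 test gave 5 (3.21%, against 6.75%), no filter 8 (1.37%, against 1.67%) and every deposited row 6 (3.77%, against 7.61%). With no G8 library 21 were called (13.6%, against 10.4%). For the interaction, where 2 were called, DESeq2 size factors gave 1, the DESeq2 test 12, no filter 6 and leaving out G8 libraries 1 and 2 in both arms 10. The DESeq2 test called both of the 2 and DESeq2 size factors 1 of them, while no filter called neither. The ratio to the genes without the 5 most abundant pseudogenes was 0.586 in A4, 0.736 in A7, 0.725 in E4, 0.353 in G8 and 0.615 in mock without PNK, and 0.33, 0.401, 0.334, 0.337 and 0.513 with it. With 4 called in place of 2, the replicate block moved only the interaction by over 1.5 times. With a replicate block within each group, which pairs the arms, 8 were called for the interaction and 225 for PNK, in place of 228.

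Leaving out 1 library at a time gave 88 to 197 calls across the groups without PNK, 56 to 75 with it, 7 to 110 in mock without PNK, 0 to 5 with it, 221 to 253 for PNK and 0 to 28 for the interaction. The 88 and 197 are 38.1% and 84.5%, against 12.6% and 69.1% of all features, and the 56 and 75 are 35.7% and 48.7%, against 16% and 27.4%. The 5 are 3.05%, against 7.46%, the 253 are 91%, against 90.6%, and the 28 are 11.7%, against 3.05%. Across the groups without PNK the low values came without A7 library 1 (88), G8 library 2 (93), A7 library 2 (98), A4 library 2 (102) and G8 library 1 (107), and in mock without PNK the extremes without mock library 1 (7) and G8 library 3 (110). No pseudogene named for a test reversed in it under any of these settings. Reads shared among near-identical copies limit all counts: with each copy set counted once, 146 of 192 were called across the groups without PNK and 53 of 128 with it.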
